A study of Mus musculus with 4 samples.

Results

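The ETS and KLF families of transcription factors were followed in bulk tumours of the mammary gland from mice with PyMT (polyoma middle T antigen), with and without a Cre-activated MYC allele. Members were the rows of the deposited table whose symbols are Klf followed by digits, Etv1 to Etv6, or one of 15 listed ETS genes. This gave 36 genes, 20 ETS and 16 KLF, of 20555 in the table. Control-PyMT (2 libraries) is labelled with PyMT alone. MYC-PyMT (2 libraries) carries PyMT, S100a8-cre and Rosa26-LSL-MYC, so that Cre made from the S100a8 promoter, which is strongly active in neutrophils, removes a stop cassette in front of MYC. Both groups share PyMT. The labels do not say whether Control-PyMT mice carry Cre or the silent MYC allele, give no species for MYC and no age, and do not tie libraries to single mice, so p-values speak only of the variation among these libraries, possibly technical in origin.

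ETS proteins bind DNA through a winged helix-turn-helix domain that reads a GGAA core. KLF proteins bind GC-rich and CACCC elements through zinc fingers at their C-terminal end. In mammary epithelium, EHF and ELF3 are ETS factors of the epithelial lineage. The PEA3 factors ETV1, ETV4 and ETV5 are known as outputs of receptor tyrosine kinase and MAPK signalling, which middle T antigen engages, and the name PEA3 comes from the polyoma enhancer. ERF, ETV3 and ETV6 repress ETS sites. Within the KLF family, KLF3, KLF8 and KLF12 repress through the corepressor CtBP, and KLF9, KLF10, KLF11, KLF13, KLF14 and KLF16 can bind Sin3A.

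Libraries held 31783846 to 34190913 reads, recovered from scaled counts (reads divided by 1 size factor per library). Levels are in scaled counts unless given per kb, and a pair of values for a group is always in the order replicate 1, replicate 2. Per the labels, RNA integrity numbers ran from 3.3 to 9.6 and are not tied to samples, so the part of RNA quality in any value was not tested. Mammary epithelial genes were abundant in every library, for example Krt8 at 28743 and 27667 in Control-PyMT against 22211 and 28747 in MYC-PyMT. Levels were not even between the groups: of 10 luminal markers, Krt8 among them, 7 fell and 3 did not pass. Over all tested genes 24.6% were called lower. The mouse Myc gene had 1832 and 2819.9 in Control-PyMT against 3215 and 2815 in MYC-PyMT and did not pass the test (log2 change 0.40, SE 0.23, limma adjusted p = 0.172). These reads need not include the transgene. S100a8, whose promoter drives Cre, had 2338 and 639 in Control-PyMT against 1564 and 2524 in MYC-PyMT and did not pass either (adjusted p = 0.260). Of 6 tested neutrophil markers, S100a8 among them, 2 rose, 1 fell and 3 did not pass, where 23.3% of all tested genes were called higher. Sums over all 7 neutrophil markers found, tested or not, were 34688 and 21578 in Control-PyMT against 9988 and 9951 in MYC-PyMT. Their part in the ETS and KLF values was not tested. In bulk tissue, fewer cells of a type and less RNA per cell cannot be told apart.

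Members changed in few cases and mostly downward. By limma, with p adjusted over 16725 genes and a threshold of 0.05, 3 of 34 tested members rose in MYC-PyMT and 7 fell. That is 29.4% of tested members, where 47.9% of all tested genes were called (23.3% higher and 24.6% lower). The ETS family had 1 rise and 6 falls among 19 tested, and the KLF family 2 rises and 1 fall among 15. With upper-quartile scaling the KLF split was 2 rises and 4 falls, and the ETS split 1 rise and 8 falls. Among called members 8 moved by a log2 change of 1 or more, 3 higher and 5 lower, where 32.7% of all genes did (14.4% higher and 18.3% lower). The median log2 change was -0.17 over the members and -0.018 over all genes, and the median size of change without regard to direction was 0.41 and 0.68. Both libraries of one group lay outside the range of the other for 21 of 34 members, 6 higher and 15 lower, beside 75.7% of all genes (37% higher and 38.7% lower). Spib and Klf14 were under the level filter of 10 scaled counts in at least 2 libraries. Klf12 and Klf1 passed it only through the group in which they were higher, so their presence among the tested genes already depended on a difference.

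**Figure D1:**
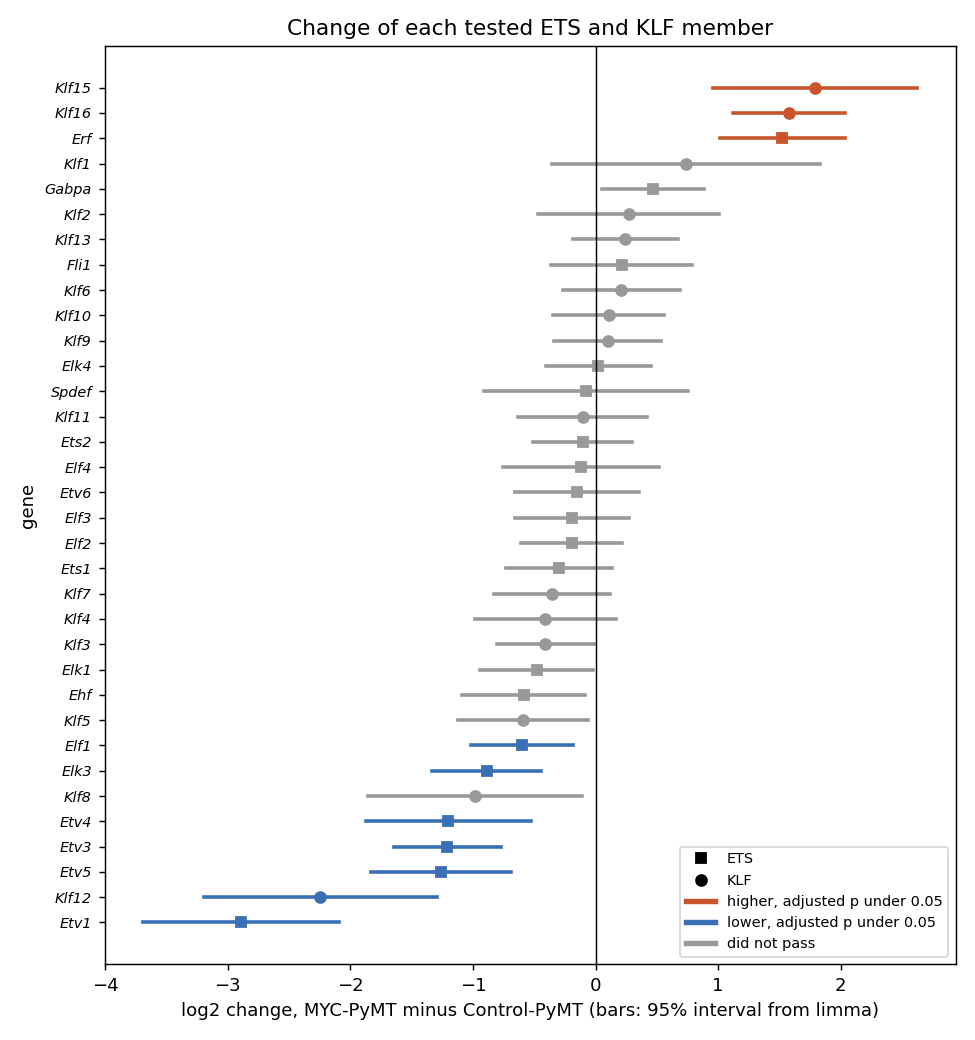
Log2 change (MYC-PyMT minus Control-PyMT, x axis) of the 34 tested members (y axis), with 95% intervals from limma; squares are ETS genes, circles KLF genes, and colours mark the direction of the 10 called members. Etv1 lies lowest at -2.89 and Klf15 highest at 1.79, and most members lie near 0.

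The PEA3 factors Etv1, Etv4 and Etv5 were lower in both MYC-PyMT libraries than in either Control-PyMT library, and all 3 passed the test. Etv1 (ENSMUSG00000004151.16, chromosome 12, 38779380 to 38870484, GRCm38) had scaled counts of 3451 and 3819.6 in Control-PyMT against 779 and 307 in MYC-PyMT. The mean fell from 3635 ± 261 (SD, n = 2) to 543 ± 334 (log2 change -2.89, SE 0.36, limma adjusted p = 1.88e-04). It was the most changed ETS gene, and its level differed more between the MYC-PyMT libraries than between the Control-PyMT libraries. Its log2 change was -3.56 without MYC-PyMT replicate 1 and -2.22 without MYC-PyMT replicate 2. With the trend with exon length removed the log2 change of Etv1 was -2.52.

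Etv5 (ENSMUSG00000013089.15, chromosome 16, 22381309 to 22439719) had scaled counts of 2066 and 2753 in Control-PyMT against 1261 and 788 in MYC-PyMT (log2 change -1.26, SE 0.26, limma adjusted p = 0.00298). It was no longer called when Control-PyMT replicate 2 was left out (log2 -1.05, adjusted p = 0.0890). Etv4 (ENSMUSG00000017724.14, chromosome 11, 101769742 to 101785371), the founding PEA3 gene, had scaled counts of 321 and 445 in Control-PyMT against 133 and 202 in MYC-PyMT (log2 change -1.20, SE 0.30, limma adjusted p = 0.00879). Its call was lost on leaving out Control-PyMT replicate 1 (log2 -1.44, adjusted p = 0.0544), Control-PyMT replicate 2 (log2 -0.96, adjusted p = 0.124) or MYC-PyMT replicate 1 (log2 -0.90, adjusted p = 0.0556). In all 3 genes the higher MYC-PyMT library was below the lower Control-PyMT library.

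Levels of different genes were compared per kb of merged exon (all annotated exons of a gene joined). Etv5 was the most abundant PEA3 factor per kb in every library. The sum of the 3 per kb was 866 and 1102 for Control-PyMT against 409 and 280.2 for MYC-PyMT. Within that sum Etv1 made up 30.0% and 26.1% in the Control-PyMT libraries and 14.3% and 8.23% in the MYC-PyMT libraries, so its share was lower in both MYC-PyMT libraries. The share of Etv4 was 11.9% and 13.0% in the Control-PyMT libraries and 10.5% and 23.2% in the MYC-PyMT libraries, with no separation between the groups.

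The 3 ETS repressors did not move alike. Erf (ENSMUSG00000040857.15, chromosome 7, 25242561 to 25250761), which is held out of the nucleus when MAPK signalling phosphorylates it, had scaled counts of 1061 and 1562 in Control-PyMT against 3333 and 4112 in MYC-PyMT. The mean rose from 1312 ± 354 to 3723 ± 551 (log2 change 1.52, SE 0.23, limma adjusted p = 5.40e-04), the single ETS member called higher by limma. Etv3 (ENSMUSG00000003382.18, chromosome 3, 87525407 to 87540156), the closest relative of ERF in the family, fell, with scaled counts of 2082 and 2040.2 in Control-PyMT against 984 and 808 in MYC-PyMT (log2 change -1.21, SE 0.20, limma adjusted p = 8.47e-04). Both calls held in all 15 alternative analyses described with the processing. With the trend with exon length removed the log2 change was 1.51 for Erf and -0.92 for Etv3. Etv6 (ENSMUSG00000030199.16, chromosome 6, 134035700 to 134270158), known from leukaemia fusions, had scaled counts of 5585 and 5793 in Control-PyMT against 6364 and 4128 in MYC-PyMT. Its groups overlapped, and the change did not pass (log2 change -0.15, SE 0.23, limma adjusted p = 0.607, 95% interval -0.65 to 0.35).

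Ratios taken within a library do not depend on its size factor. The ratio of Erf to Etv3 per kb was 1.45 and 2.18 for Control-PyMT against 9.65 and 14.5 for MYC-PyMT. The ratio of Erf to the sum of the PEA3 factors per kb was 0.340 and 0.393 for Control-PyMT against 2.26 and 4.07 for MYC-PyMT. Per kb, Erf thus lay below the PEA3 sum in both Control-PyMT libraries and above it in both MYC-PyMT libraries. The other repressors did not cross in this way. Etv3 lay below the PEA3 sum per kb in every library, and Etv6 lay above it in every library but Control-PyMT replicate 2. A single value over 2 against 2 libraries cannot reach an exact p below 0.33, so these ratios are given without a test. Erf was higher, and Etv3 and each PEA3 factor lower, in both MYC-PyMT libraries. Separation of the ratios between the groups follows from those changes.

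**Figure D2:**
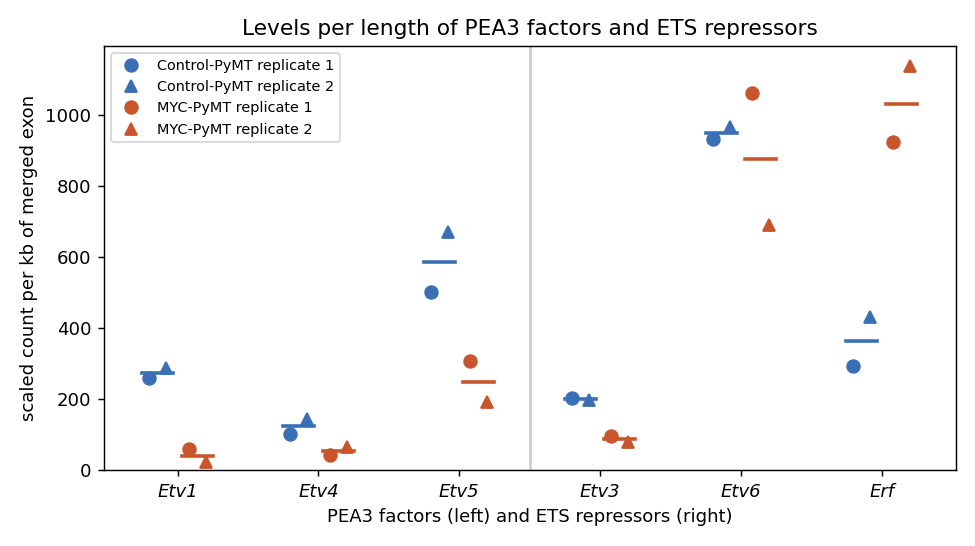
Scaled count per kb of merged exon (y axis, from 0) of the PEA3 factors Etv1, Etv4 and Etv5 and the repressors Etv3, Etv6 and Erf (x axis) in each library; horizontal lines are group means. Erf stood at 364 per kb on average in Control-PyMT and 1032 in MYC-PyMT, while Etv5 went from 587 to 249.7.

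To show the DNA in front of changed members, the 250 bases before the start site are given for the 5 genes called with at least a 2-fold change that have a RefSeq start (GRCm38.p6) whose stretch holds at most 30 annotated exon bases; this limit was set after the entries had been seen, and it left out Etv3, the more upstream start of Etv5 and the more downstream start of Etv1. The stretches of Etv1, Etv5 and Klf12 lie inside the span of the gene in GENCODE but outside its exons. Of the 36 members, 28 had an entry. Capitals mark the E-box CACGTG read by MYC with MAX, the ETS site CCGGAA, the KLF element CACCC and the GC box GGGCGG, searched on both strands. In the stretches shown no 2 kinds of motif overlap.
Etv1, chr12:38779832-38780081, plus strand: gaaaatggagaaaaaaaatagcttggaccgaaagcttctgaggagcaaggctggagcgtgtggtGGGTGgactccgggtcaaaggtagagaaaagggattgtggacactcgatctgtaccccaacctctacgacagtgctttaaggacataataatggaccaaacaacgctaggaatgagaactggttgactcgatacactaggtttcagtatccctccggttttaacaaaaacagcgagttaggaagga
Etv5, chr16:22438369-22438618, minus strand: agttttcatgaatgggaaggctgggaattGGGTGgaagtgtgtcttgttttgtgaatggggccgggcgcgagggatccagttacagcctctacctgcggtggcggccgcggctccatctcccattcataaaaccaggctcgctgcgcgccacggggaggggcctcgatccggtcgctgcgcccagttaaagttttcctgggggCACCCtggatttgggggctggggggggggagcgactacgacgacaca
Erf, chr7:25250759-25251008, minus strand: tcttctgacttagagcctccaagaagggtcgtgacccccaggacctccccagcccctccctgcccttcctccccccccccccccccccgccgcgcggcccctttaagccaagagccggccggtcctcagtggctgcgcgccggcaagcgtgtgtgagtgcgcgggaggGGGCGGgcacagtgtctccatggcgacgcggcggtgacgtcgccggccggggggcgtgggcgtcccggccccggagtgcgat
Klf12, chr14:100149797-100150046, minus strand: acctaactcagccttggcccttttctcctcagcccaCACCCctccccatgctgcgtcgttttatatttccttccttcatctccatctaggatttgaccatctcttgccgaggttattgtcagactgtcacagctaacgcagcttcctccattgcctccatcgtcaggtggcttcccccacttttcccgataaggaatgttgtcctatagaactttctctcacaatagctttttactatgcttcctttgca
Klf15, chr6:90462326-90462575, plus strand: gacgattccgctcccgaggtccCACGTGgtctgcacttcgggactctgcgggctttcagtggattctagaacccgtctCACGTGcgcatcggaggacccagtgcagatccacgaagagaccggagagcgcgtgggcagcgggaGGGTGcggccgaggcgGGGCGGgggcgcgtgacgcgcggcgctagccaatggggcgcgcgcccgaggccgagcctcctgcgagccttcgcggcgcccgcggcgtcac
Of the stretches shown, that of Klf15, which rose, held 2 E-boxes, beginning 228 and 172 bases before the start. Etv3, which fell and whose stretch is not shown, held 1, beginning 182 bases before the start. Over all 32851 promoters of that length in the table, 6.02% held at least 1 E-box and 0.429% held 2 or more. Of the 28 members with an entry, 6 held an E-box before their first listed start: Etv3 and Klf15, and Elf4, Klf4, Klf6 and Klf11, which did not pass the test. This count takes only the first start of a gene, while the shares over all promoters take every listed start, so the units differ. CACCC lay in the stretches of Etv1, Etv5, Klf12 and Klf15 (52% of all promoters) and the GC box in those of Erf and Klf15 (32.7%). CCGGAA was in none of the 5, and in 12% of all promoters. These are matches of letters and do not show binding.

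The ternary complex factors ELK1, ELK3 and ELK4 act with SRF at serum response elements. Elk3 (ENSMUSG00000008398.14, chromosome 10, 93247414 to 93311135) fell, with scaled counts of 1324 and 1569 in Control-PyMT against 774 and 784 in MYC-PyMT (log2 change -0.89, SE 0.20, limma adjusted p = 0.00481), and its call held in all 15 alternatives. Elk3 shares 6.95% of its exon bases with Cdk17 on the other strand. Elk1 had 814 and 749 in Control-PyMT against 552 and 567 in MYC-PyMT. Its groups did not overlap, but the change did not pass (log2 change -0.48, SE 0.21, limma adjusted p = 0.0798). With upper-quartile scaling it did (log2 -0.58, adjusted p = 0.0376). Elk4 had 1435 and 1516 in Control-PyMT against 1385 and 1623 in MYC-PyMT, with overlapping groups and a log2 change of 0.024 (95% interval -0.40 to 0.45). The partner gene Srf had 1068 and 1559 in Control-PyMT against 1228 and 1287 in MYC-PyMT and also did not pass (log2 change -0.038, adjusted p = 0.905).

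Ehf (ENSMUSG00000012350.15, chromosome 2, 103263433 to 103303278) was the most abundant ETS member, with scaled counts of 41004 and 32402 in Control-PyMT against 27101 and 21722 in MYC-PyMT. Both MYC-PyMT libraries were below both Control-PyMT libraries, by 1.50-fold on the means, and the change just missed the threshold (log2 change -0.59, SE 0.23, limma adjusted p = 0.0550). It passed in 4 of 15 alternatives, with TMM scaling (adjusted p = 0.0342), upper-quartile scaling (0.0253), edgeR (0.0352) and DESeq2 (0.0222). Without the variance trend it did not pass (limma adjusted p = 0.107). Nor did it with the trend with transcript length removed (log2 -0.51, limma adjusted p = 0.101). Leaving out libraries gave log2 changes of -0.76 to -0.42 for Ehf. Elf3 had 1478 and 1108 in Control-PyMT against 1113 and 1126 in MYC-PyMT, with overlapping groups (log2 change -0.19, adjusted p = 0.473). Spdef, a factor of secretory luminal cells, had 769.7 and 1256 in Control-PyMT against 1421 and 609 in MYC-PyMT. The lowest and the highest of these 4 values both came from MYC-PyMT, and the change was -0.080 with a 95% interval of -0.91 to 0.75. Elf5, the alveolar ETS factor, is outside the family rule used here and was looked up after the other values were seen. It had 14482 and 13669 in Control-PyMT against 19141 and 19697 in MYC-PyMT (log2 change 0.46, adjusted p = 0.0660). The ratio of Elf5 to Ehf per kb was 0.335 and 0.400 for Control-PyMT against 0.670 and 0.860 for MYC-PyMT, higher in both MYC-PyMT libraries. That follows from Elf5 being higher and Ehf lower in both.

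Among factors shared by blood, vessel and epithelial cells, Elf1 (ENSMUSG00000036461.15, chromosome 14, 79481194 to 79582494), which also acts in lymphocytes, fell, with scaled counts of 4604 and 3841 in Control-PyMT against 2902 and 2656 in MYC-PyMT (log2 change -0.60, SE 0.19, limma adjusted p = 0.0241). Of the 10 called members it lost its call in the most alternatives. The call ended without the variance trend (adjusted p = 0.0762) and with the trend with transcript length removed (0.0617). It also ended on leaving out Control-PyMT replicate 1 (log2 -0.47, adjusted p = 0.0795), MYC-PyMT replicate 1 (log2 -0.66, adjusted p = 0.0904) or MYC-PyMT replicate 2 (log2 -0.53, adjusted p = 0.194). Elf2 and Elf4, its relatives, did not pass (-0.20 and -0.12, adjusted p = 0.404 and 0.761). Elf1 shares 4.85% of its exon bases with Wbp4 on the other strand, and the strand setting of the counting is not given in the sources used here.

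Ets1, a factor of lymphocytes and endothelium, had 1768 and 1726 in Control-PyMT against 1282 and 1567 in MYC-PyMT (log2 change -0.30, adjusted p = 0.225), and Ets2 had 5399.8 and 4649 in Control-PyMT against 4661 and 4657 in MYC-PyMT (log2 change -0.10, adjusted p = 0.658). Fli1, of blood and vessel cells, had 259 and 239.5 in Control-PyMT against 255 and 329 in MYC-PyMT (log2 change 0.21, adjusted p = 0.517). Of 10 T and NK cell markers 9 fell and none was at 0 in any library, with summed levels of 616 and 584 in Control-PyMT against 129.8 and 170.3 in MYC-PyMT. Any of these markers under 10 scaled counts in both MYC-PyMT libraries could pass the level filter only through Control-PyMT. The fall of such a marker already depended on a difference. Of 11 endothelial markers 6 rose and 1 fell, also with none at 0, and summed levels of 3439 and 4779 in Control-PyMT against 5696 and 7208 in MYC-PyMT. Over all tested genes 23.3% were called higher and 24.6% lower. The part of these markers in the values of Ets1, Fli1 and Elf1 was not tested. Erg, an endothelial ETS gene outside the rule, rose from 107 and 119.8 to 253 and 280.2 (log2 change 1.23, adjusted p = 0.00451).

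Gabpa, the DNA-binding subunit of GABP and an activator of mitochondrial and housekeeping genes, had scaled counts of 3245 and 2726 in Control-PyMT against 4290.1 and 3927 in MYC-PyMT. Both MYC-PyMT libraries were higher, but the change did not pass (log2 change 0.46, SE 0.19, limma adjusted p = 0.0632). With the transcript length trend removed it did (adjusted p = 0.0380). Gabpa shares 6.98% of its exon bases with Atp5j on the other strand. Gabpb1 and Gabpb2, genes of its partner subunit, did not pass (-0.31 and -0.18). Spib, a lymphoid factor, had 1 and 12 reads in Control-PyMT against 2 and 4 in MYC-PyMT, too few for a comparison. Of 5 tested B and plasma cell markers 1 rose and 1 fell, where 23.3% of all tested genes were called higher and 24.6% lower. Ms4a1 was at 0 in MYC-PyMT replicate 1. Sums over all 6 markers, tested or not, were 289.9 and 258 in Control-PyMT against 1309 and 749 in MYC-PyMT.

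**Figure D3:**
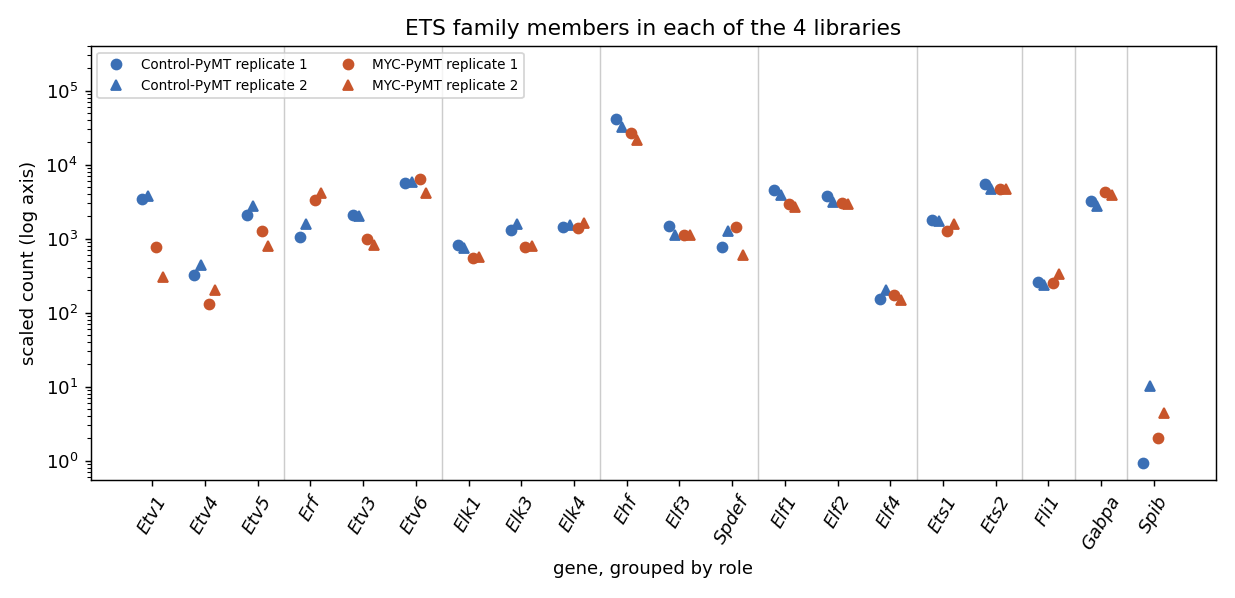
Scaled counts (y axis, log scale) of the 20 ETS members (x axis, grouped by role) in the 4 libraries; circles and triangles are replicates 1 and 2 of each group. Etv1, Etv4, Etv5 and Etv3 lie lower and Erf higher in both MYC-PyMT libraries, while Spib lies near the counting limit.

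Of the 3 CtBP-binding repressors of the KLF family, Klf12 fell, and Klf3 and Klf8 did not pass the test, where 24.6% of all genes were called lower. Klf12 passed the level filter only through Control-PyMT, so its call is given as a description of that gene. Klf12 (ENSMUSG00000072294.4, chromosome 14, 99870632 to 100284679) had scaled counts of 43.0 and 44.2 in Control-PyMT against 8.05 and 8.79 in MYC-PyMT (log2 change -2.24, SE 0.43, limma adjusted p = 0.00201). These are 46, 52, 8 and 8 reads. The counts were low, the replicates lay close together, and the groups did not overlap. Klf8, also low, had 108 and 59.5 in Control-PyMT against 38.2 and 41.8 in MYC-PyMT, and its Control-PyMT replicate 2 lay nearer to the MYC-PyMT libraries than to Control-PyMT replicate 1 (log2 change -0.98, SE 0.39, limma adjusted p = 0.0611). It passed with upper-quartile scaling (adjusted p = 0.0433). Klf3, far more abundant, had 3676 and 3622 in Control-PyMT against 2835 and 2658 in MYC-PyMT. Its groups did not overlap, and the change of -0.41 did not pass (adjusted p = 0.0801), though it did with upper-quartile scaling (0.0313) and edgeR (0.0468). With the transcript length trend removed the Klf3 change was -0.096 (limma adjusted p = 0.679). The corepressor gene Ctbp2 fell from 2865 and 2842 to 1688 and 1695 (log2 change -0.75, adjusted p = 0.00641), and Ctbp1 did not pass (log2 change 0.38, adjusted p = 0.122).

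Of the Sin3-binding group, Klf16 (ENSMUSG00000035397.8, chromosome 10, 80567124 to 80577321) rose, with scaled counts of 375 and 385 in Control-PyMT against 1130.1 and 1145 in MYC-PyMT. Replicates lay within a few percent of each other, and the mean went from 379.9 ± 6.89 to 1138 ± 10.6 (log2 change 1.58, SE 0.20, limma adjusted p = 2.37e-04). The call held in all 15 alternatives, with log2 changes of 1.48 to 1.60. Klf9, a progesterone and glucocorticoid responsive gene, had 1220.4 and 1157 in Control-PyMT against 1383 and 1171 in MYC-PyMT (log2 change 0.099, adjusted p = 0.700). Klf10 and Klf11, induced by TGF-beta, gave 0.11 and -0.10 (adjusted p = 0.685 and 0.743) with overlapping groups. Klf13 gave 0.24 (adjusted p = 0.323) with both MYC-PyMT libraries higher. Klf14 had 5 and 8 reads in Control-PyMT against 0 and 3 in MYC-PyMT and was not tested. Sin3a did not pass (log2 change 0.32, adjusted p = 0.167).

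None of the 6 activator-type KLF genes passed by limma, edgeR or DESeq2, and 1 had an unadjusted limma p under 0.05. Klf5, a factor of basal and proliferating epithelium, had scaled counts of 488 and 431 in Control-PyMT against 335 and 276 in MYC-PyMT. Both MYC-PyMT libraries were lower (log2 change -0.59, SE 0.24, limma adjusted p = 0.0651), and the change passed with upper-quartile scaling (adjusted p = 0.0346). Klf4, a factor of differentiating epithelium, had 700.5 and 614 in Control-PyMT against 397 and 615 in MYC-PyMT, so that MYC-PyMT replicate 2 lay level with Control-PyMT replicate 2 (log2 change -0.41, adjusted p = 0.216). Klf6 (ENSMUSG00000000078.6, chromosome 13, 5861482 to 5870394), an early response gene, had 6502 and 4543 in Control-PyMT against 5904 and 6697 in MYC-PyMT (log2 change 0.21, adjusted p = 0.445). Klf7 had 691 and 688 in Control-PyMT against 502 and 576 in MYC-PyMT (log2 change -0.36, adjusted p = 0.188), and 39.3% of its exon bases are shared with the lincRNA Gm26649 on the other strand. Klf2, a flow-responsive endothelial gene that resting T cells also express, had 70.1 and 103 in Control-PyMT against 98.6 and 107 in MYC-PyMT (log2 change 0.27, adjusted p = 0.525). Klf1, the erythroid factor, had 8 and 10 reads in Control-PyMT against 16 and 11 in MYC-PyMT (log2 change 0.74, adjusted p = 0.241). The 5 tested erythroid markers had log2 changes of -0.91 to -0.54 (limma adjusted p = 0.0926 to 0.525). Sums over all 6 erythroid markers, tested or not, were 1956 and 9175 in Control-PyMT against 2098 and 2732 in MYC-PyMT. They were highest in Control-PyMT replicate 2, and the part of these markers in the Klf1 value was not tested.

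Epidermal and basal markers, which overlap the known range of Klf4 and Klf5, fell widely. All 9 tested keratinocyte and hair markers fell, where 24.6% of all tested genes were called lower. Krt25 was at 0 in both MYC-PyMT libraries and Krt73 at 0 in MYC-PyMT replicate 1. A marker under 10 scaled counts in both MYC-PyMT libraries can pass the level filter only through Control-PyMT, so its fall already depended on a difference. Summed levels of all 10 markers, tested or not, were 6317 and 3163 in Control-PyMT against 224 and 296 in MYC-PyMT. Of 9 basal and myoepithelial markers 6 fell and 1 rose, with none at 0 and sums of 47534 and 47749.7 in Control-PyMT against 11729 and 25688 in MYC-PyMT. Of 10 luminal markers 7 fell and 3 did not pass, with none at 0 and sums of 114495 and 115423 in Control-PyMT against 79538 and 81547 in MYC-PyMT. Their part in the ETS and KLF values was not tested.

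Klf15 (ENSMUSG00000030087.11, chromosome 6, 90462576 to 90475238), a glucocorticoid-induced metabolic regulator of muscle, liver and fat, had the largest rise of the members, with scaled counts of 74.8 and 159 in Control-PyMT against 451 and 319.8 in MYC-PyMT. The mean went from 117 ± 59.4 to 385 ± 92.7 (log2 change 1.79, SE 0.37, limma adjusted p = 0.00327). Klf15 was not called when Control-PyMT replicate 1 was left out (log2 1.25, adjusted p = 0.0546), and the log2 change was 2.33 without Control-PyMT replicate 2. Of 6 adipocyte markers 1 rose and 1 fell, where 23.3% of all tested genes were called higher and 24.6% lower. None of these markers was at 0, and their sums were 720.1 and 2164 in Control-PyMT against 3566 and 3024 in MYC-PyMT. Control-PyMT replicate 1 was lowest in both Klf15 and the adipocyte sum, and the part of fat cells in the Klf15 value was not tested.

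**Figure D4:**
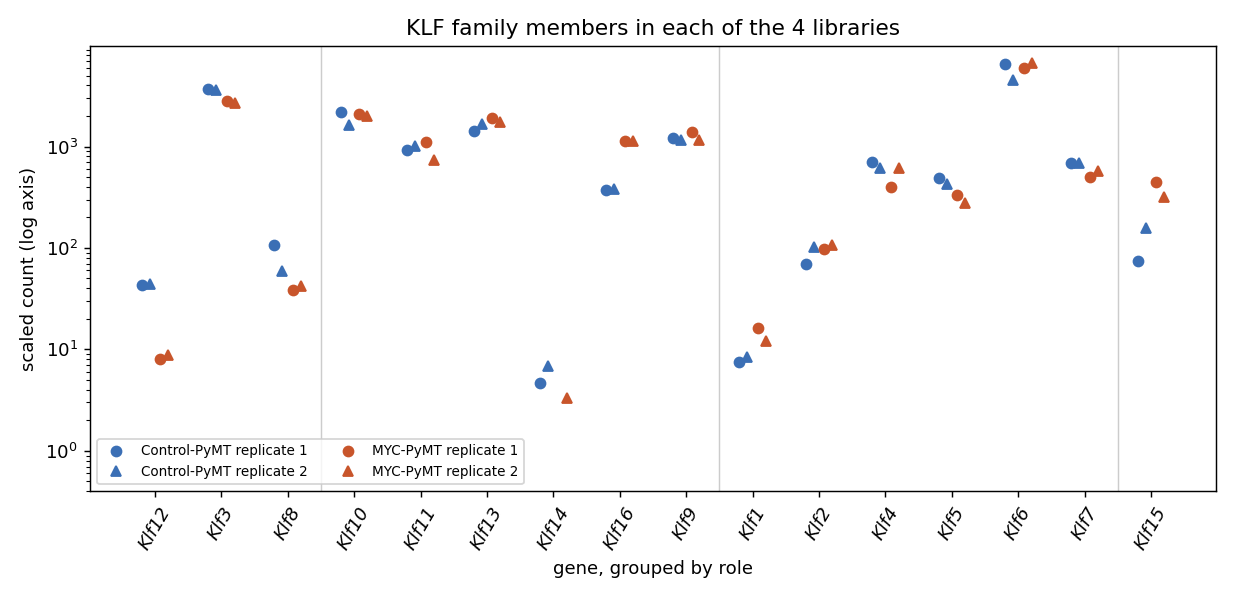
Scaled counts (y axis, log scale) of the 16 KLF members (x axis, grouped by role) in the 4 libraries; circles and triangles are replicates 1 and 2, and the value of 0 for Klf14 in MYC-PyMT replicate 1 cannot be drawn. Klf12 lies lower and Klf16 and Klf15 higher in both MYC-PyMT libraries, while Klf6 is the most abundant KLF gene in every library.

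Ehf had the highest level per kb of the 36 members in both groups and held 51.8% and 45.5% in the Control-PyMT libraries and 42.2% and 39.4% in the MYC-PyMT libraries of the summed ETS level per kb. Erf held 2.07% and 3.39% in the Control-PyMT libraries and 8.02% and 11.5% in the MYC-PyMT libraries, and by its mean it went from 11th of the 36 members to the third. The PEA3 factors together held 6.10% and 8.63% in the Control-PyMT libraries and 3.55% and 2.83% in the MYC-PyMT libraries. Klf6 held 40.8% and 33.4% in the Control-PyMT libraries and 35.4% and 39.8% in the MYC-PyMT libraries of the KLF sum, with no separation between groups. Klf16 held 3.86% and 4.65% in the Control-PyMT libraries and 11.1% and 11.2% in the MYC-PyMT libraries.

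Genes that work with these factors were taken from lists written together with the choice of members, when earlier results of these data were known. Counts in these lists are therefore descriptions. Of 12 MAPK output genes 9 fell and 3 did not pass, with a median log2 change of -1.31. Over all tested genes 24.6% were called lower. Dusp6, a cytoplasmic MAPK phosphatase, had 5350.3 and 5478 in Control-PyMT against 1574 and 1260.5 in MYC-PyMT (log2 change -1.94, adjusted p = 5.57e-05). Dusp4, a nuclear MAPK phosphatase, went from 1204 and 1329 to 380.4 and 364, and Spred3, a Ras pathway inhibitor, from 393 and 533 to 94.6 and 98.9. Dusp6, Dusp4 and Spred3 lay lower in both MYC-PyMT libraries, as the PEA3 factors did, and a shared cause was not tested.

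Of 16 ETS partners and regulators 5 fell and 2 rose (median 0.011), where 24.6% of all tested genes were called lower and 23.3% higher. Trib1, an adaptor of the COP1 ubiquitin ligase, fell from 5410.1 and 5456 to 2224 and 1780.3 (log2 change -1.45, adjusted p = 2.52e-04). Runx1, which binds DNA together with ETS1, fell from 2810.3 and 2888 to 1160.3 and 1370.4 (log2 change -1.18, adjusted p = 7.83e-04). Atxn1, a partner of the PEA3 gene repressor CIC, fell by 0.91 on the log2 scale (adjusted p = 0.00502). Cic itself did not pass (log2 change 0.22, adjusted p = 0.663), with Control-PyMT libraries far apart at 892 and 2422. Of 11 KLF partners and regulators 2 fell, Ctbp2 and Mef2a, and 9 did not pass. The 4 tested genes of the SP family, the nearest relatives of the KLFs, had log2 changes of -0.60 to 0.24 (limma adjusted p = 0.0952 to 0.541).

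**Figure D5:**
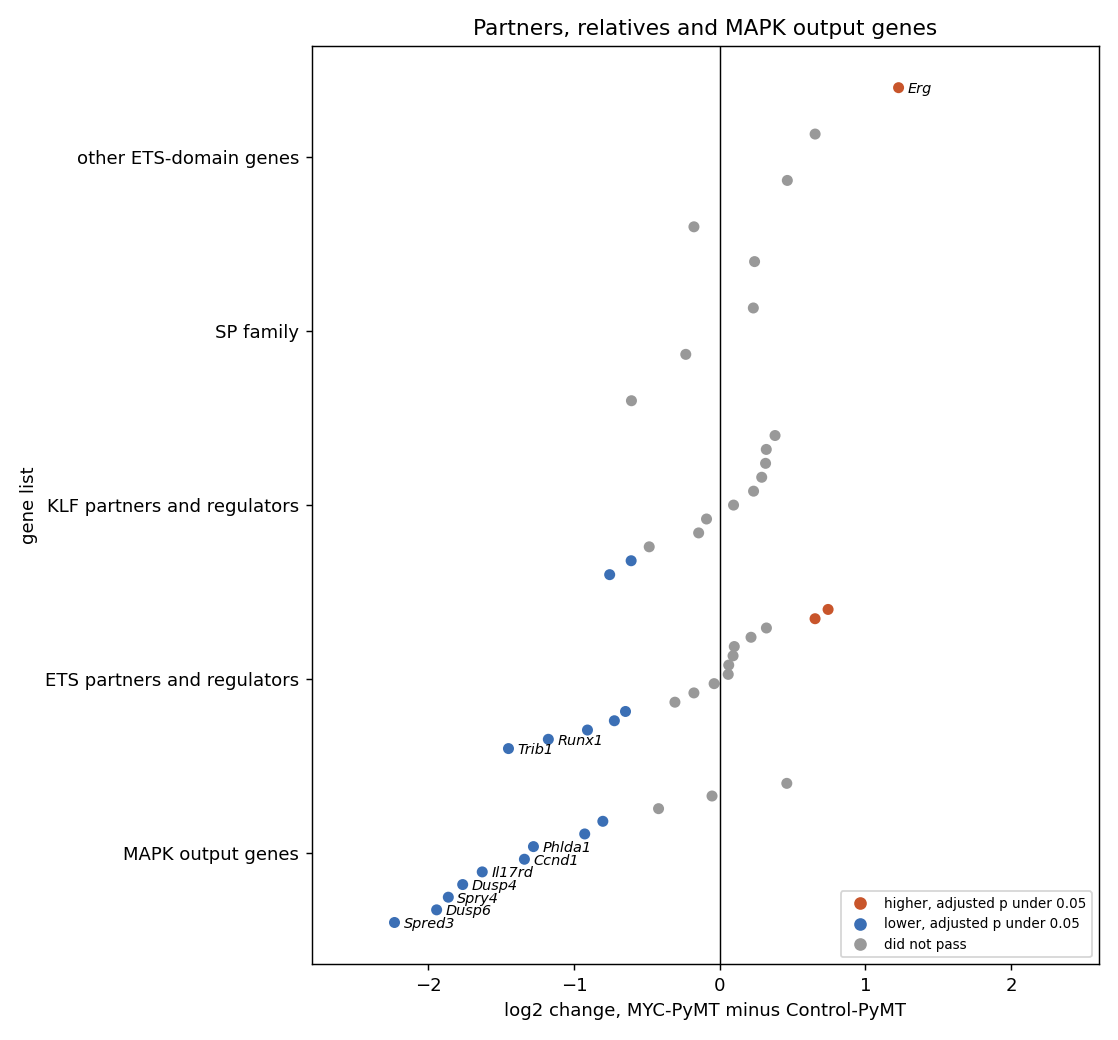
Log2 change (MYC-PyMT minus Control-PyMT, x axis) of tested genes in 5 lists (y axis); each point is a gene, colours give the call, and genes past 1 in either direction are named. MAPK output genes reach -2.23 at Spred3, and the SP family stays between -0.60 and 0.24.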

How the data were processed

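The values deposited by the authors are scaled counts, a signal of 0 or more. HISAT2, mm10 (GRCm38.p5) and DESeq2 are named per the submitters' processing notes; neither the read counter, its strand setting nor the annotation is given in the sources used here. Values were whole multiples of 1 read's worth within 0.001 reads in all libraries. For MYC-PyMT replicate 1, where 1 read is worth 1.01, an automatic check of that recovery failed, since such a step is hardly told from 1; edgeR and DESeq2 on recovered reads are therefore alternatives that rest on the recovery. Coordinates and exon lengths came from GENCODE M21 by gene ID.

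The test was limma (3.58.1, R 4.3.3), two-sided and with a variance trend, on log2 of the value plus 1, for genes reaching 10 in 2 or more libraries, adjusted after Benjamini and Hochberg. The scale understates changes of low genes. Alternatives were a pseudocount of 0.5 or 5, filters of 0 and 50, upper-quartile and TMM scaling, no trend in the variance, a replicate block, each library left out, edgeR (4.0.16, which called 7925 genes), DESeq2 (1.42.0) and removal of each library's trend with exon length. The procedure was tested on simulated data.

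Members, lists and tests were chosen with earlier results of these data known. Values by library, change and error are given for called members changed at least 2-fold, and up to 3 called genes are named per list; any further gene was picked with its values in view. Myc was added to the lists, and a wrong match for Etv3l (a pseudogene) removed, after values had been seen. Etv2, Fev, Etv3l, Sp5, Sp6, Sp8, Sp9, Mpo and Ly6g were not analysed here.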

Additional observations from a re-analysis of the deposited data

How the results depend on the processing

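No called member changed direction in any of 15 alternatives, and 6 of 10 (Etv1, Etv3, Elk3, Erf, Klf12 and Klf16) were called wherever they were tested. The others, Etv4, Etv5, Elf1 and Klf15, lost their call in 10 values in all. The ETS count of 1 higher was 2 with the length trend removed, when Gabpa passed. The KLF count of 1 lower was 4 with upper-quartile scaling, 2 with the replicate block, 2 with edgeR, and 0 with a level filter of 50, where Klf12 was not tested. Upper-quartile scaling moved the median of all genes by -0.11, to -0.12; relative to that median Klf5 stood at -0.57, Klf3 at -0.39 and Klf8 at -0.96. Leaving out 1 library at a time gave 4 to 5 ETS members lower, 1 ETS member higher, 1 to 2 KLF members higher and 1 KLF member lower, with 2663 to 3071 of all genes higher and 2573 to 3433 lower; with 1 library left in a group, that library is assumed to vary like the others. These fits keep the genes tested in the full data, which was settled after a first run with the filter applied again had been seen. Klf12 passed the filter only through Control-PyMT, so in that first run it was not tested without either Control-PyMT library. Its call in those fits depends on this choice. That first run gave 4 to 6 ETS members lower, 1 to 2 ETS members higher, 2 KLF members higher each time and 0 to 1 KLF members lower, so the calls of Klf15 and of some ETS members without a library depend on this choice. Replicate numbers are shared by the labels only: deviations of replicate 1 of both groups from their group means correlated at -0.089 across genes. With the replicate block, 3887 genes were higher and 4152 lower, Klf8 passed (adjusted p = 0.0455), and no other member's call changed.

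Of the uncalled members 12 changed sign somewhere, all without passing the test. Leaving out libraries gave -0.40 to 0.015 for Elf3, -0.30 to 0.069 for Elf4, -0.091 to 0.14 for Elk4, -0.21 to 0.0031 for Ets2, -0.46 to 0.16 for Etv6, -0.69 to 0.53 for Spdef, -0.10 to 0.32 for Klf10, -0.39 to 0.18 for Klf11, -0.0033 to 0.54 for Klf2, -0.048 to 0.47 for Klf6 and -0.020 to 0.22 for Klf9. Elk4 was -0.00047 with TMM, -0.081 with upper-quartile scaling and -0.0061 with edgeR; Klf9 was -0.0054 with upper-quartile scaling, Spdef 0.011 with DESeq2 and Elf2 0.066 with the length trend removed. Where the construction of an alternative does not show it, the cause was not tested. Depth limits Spib, Klf14, Klf1 and Klf12, which had under 100 reads per group.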
